A study of Mus musculus with 12 samples.

Results

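The immunoglobulin heavy chain V genes are the germline segments from which the antigen-binding domain of an antibody heavy chain is built, and they were counted here in RNA of lung mesenchymal cells. All 110 genes annotated as immunoglobulin V genes whose symbol starts with Ighv were taken, of 40760 genes in the count table. They were selected on measured values, since immunoglobulin counts differ between the groups of these libraries, so every difference of an Ighv level between groups below is a description. Where members passing a test are counted, the counts are also description only. The study compared 4 groups of 3 libraries: wild-type (WT) or Pear1-/- male mice on a C57BL/6 background, given vehicle or bleomycin (bleo), which injures the lung and leads to fibrosis. Cells carrying CD140a, the protein of Pdgfra, were sorted from whole lung by flow cytometry and sequenced in bulk from full-length cDNA. In the Pear1-/- mice, a trapping cassette in an intron of Pear1 was present in every tissue. Per the study's methods, mice were 8 to 12 weeks old where nothing else was said. The dose of bleo, the time after it and the number of mice per library are not given for these libraries, and p-values measure only the spread between libraries, which may be technical.

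In a developing B cell, 1 V gene is joined to a D and a J segment by the RAG recombinase, and the joined exon is transcribed with a constant region gene such as Ighm or Igha. The daughters of that B cell inherit the same V gene. A plasma cell makes far more heavy chain RNA than a resting B cell. In bulk samples such as these, fewer cells of a type and less RNA per cell cannot be told apart.

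The V exons of 5 genes are shown because they lead the usage of a group or set 2 vehicle libraries apart. Each is the second coding exon of the GENCODE M21 transcript on GRCm38, 5′ to 3′ from the first base of the mature V region, with the letters TATTNCTGT at the end of framework 3 in capitals. These letters hold the codon of the conserved second cysteine of the V domain.
Ighv1-18 (chr12:114682632-114682925, minus strand, most used gene of WT vehicle replicates 1 and 3): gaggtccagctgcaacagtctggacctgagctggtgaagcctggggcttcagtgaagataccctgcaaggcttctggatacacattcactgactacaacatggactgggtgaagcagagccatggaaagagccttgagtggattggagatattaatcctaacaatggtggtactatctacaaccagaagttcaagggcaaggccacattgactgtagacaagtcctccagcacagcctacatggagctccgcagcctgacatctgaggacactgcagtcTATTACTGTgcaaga
Ighv1-64 (chr12:115507545-115507838, minus strand, most used of the other vehicle libraries): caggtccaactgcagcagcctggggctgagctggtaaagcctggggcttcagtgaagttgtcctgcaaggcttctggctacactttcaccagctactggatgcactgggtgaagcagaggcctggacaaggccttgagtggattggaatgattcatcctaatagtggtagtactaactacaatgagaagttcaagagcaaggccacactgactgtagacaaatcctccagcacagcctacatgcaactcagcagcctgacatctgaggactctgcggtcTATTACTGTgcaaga
Ighv1-9 (chr12:114583569-114583862, minus strand, most used of WT bleo): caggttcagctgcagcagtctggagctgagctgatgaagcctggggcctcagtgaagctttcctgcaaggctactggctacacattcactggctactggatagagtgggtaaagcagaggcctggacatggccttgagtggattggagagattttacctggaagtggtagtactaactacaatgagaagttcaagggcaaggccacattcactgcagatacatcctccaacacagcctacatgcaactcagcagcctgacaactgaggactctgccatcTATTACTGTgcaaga
Ighv1-76 (chr12:115847881-115848174, minus strand, most used of the bleo libraries labelled Pear1-/-): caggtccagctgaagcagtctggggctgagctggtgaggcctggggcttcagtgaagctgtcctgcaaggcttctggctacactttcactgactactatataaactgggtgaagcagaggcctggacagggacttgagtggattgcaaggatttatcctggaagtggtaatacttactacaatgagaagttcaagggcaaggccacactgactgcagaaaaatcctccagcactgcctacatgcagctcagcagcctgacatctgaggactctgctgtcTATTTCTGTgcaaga
Ighv11-2 (chr12:114048241-114048536, minus strand, the VH11 segment): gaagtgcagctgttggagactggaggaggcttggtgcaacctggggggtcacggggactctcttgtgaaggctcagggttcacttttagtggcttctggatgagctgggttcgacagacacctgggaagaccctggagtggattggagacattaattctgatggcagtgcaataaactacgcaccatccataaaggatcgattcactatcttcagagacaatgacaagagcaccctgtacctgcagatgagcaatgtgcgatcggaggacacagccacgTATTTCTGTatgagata

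The 4 Ighv1 exons were 83.7 to 89.8% identical to each other, and 62.3 to 64.2% identical to that of Ighv11-2. The capital letters occur on the coding strand of 82 of the 110 members (74.5%) and of 47.4% of the 57 transcripts annotated as Ighv pseudogenes. All 110 members lie on the minus strand of chromosome 12, between positions 113578504 and 116000461. The median member was 94.9% identical to its nearest relative, and 53 members had a relative at 95% identity or more. Ighv1-62-2 and Ighv1-71 were 99.7% identical, with 3.08% of their 100-base windows unique among Ighv genes and pseudogenes, so how reads were split between them is uncertain. The same holds in part for Ighv1-72 and Ighv1-62-3 (99.1% identical) and for Ighv11-2 and Ighv11-1 (98.9%), whereas in 75 members every window was unique, among them Ighv1-18.

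Total counts were 6702948 to 10447101 per library. In the WT vehicle group, replicate 2 stood apart from replicates 1 and 3. Over all genes, the chi-square per degree of freedom (near 1 where 2 libraries differ by read counting alone) was 22.2 and 22.9 between replicate 2 and the others, and 1.35 to 4.91 within every other pair of replicates, highest for Pear1-/- vehicle replicate 3 (4.39 and 4.91). No pair was within sampling noise over all genes, so all 12 libraries were kept separate. WT vehicle replicate 2 resembled the Pear1-/- vehicle libraries in the measures below. Whether its label was exchanged was not tested, and it was analysed under the label as deposited, so results that use WT vehicle rest on that label. Pear1 itself stood at 58.9 to 70.9 CPM (counts scaled to a common library total) in WT vehicle and 53.9 to 57.5 in the vehicle libraries labelled Pear1-/-. After bleo it stood at 26.8 to 29.95 in WT and 38.3 to 41.4 in the libraries labelled Pear1-/-. Counts over the whole gene include exons before the cassette and are no check of a truncating allele, so Pear1-/- below means the libraries so labelled.

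Heavy chain V genes took 73170, 131305 and 73479 counts in WT vehicle replicates 1, 2 and 3, and 132221, 133597 and 140124 in Pear1-/- vehicle. After bleo they took 17100, 15529 and 16512 counts in WT and 64716, 65485 and 58126 in Pear1-/-. Of all counts this was 1.19% ± 0.216 for WT vehicle and 1.43% ± 0.153 for Pear1-/- vehicle (SD, n = 3 each). After bleo it was 0.181% ± 0.00635 for WT and 0.630% ± 0.0147 for Pear1-/-. The 2 bleo groups lay below all 6 vehicle libraries and did not overlap each other, whereas the 2 vehicle groups overlapped. The WT share was 6.60-fold lower with bleo than with vehicle, or 5.91-fold lower without WT vehicle replicate 2. In Pear1-/- it was 2.27-fold lower, and the Pear1-/- bleo share was 3.48 times that of WT bleo. Kappa light chain V genes followed the same order of groups, at 0.259 to 0.275% of counts in WT bleo, 0.986 to 1.05% in Pear1-/- bleo and 1.33 to 2.24% in the vehicle libraries. Heavy constant regions were mostly Igha (91.4 to 95.04% of heavy constant counts) in all libraries except WT bleo, where Ighm was 69.3 to 69.8% and Igha 24.3 to 24.7%.

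The spread of usage over the V genes was summarised as the effective number of genes, the exponential of the Shannon entropy, after drawing each library down to 15529 Ighv counts. A library that used a given number of genes equally would score that number. WT vehicle scored 21.0, 46.0 and 21.1 in replicates 1, 2 and 3. Pear1-/- vehicle scored 46.2, 46.3 and 45.7, and WT bleo 39.6, 38.9 and 38.8. The Pear1-/- bleo libraries were the most even of the 12, at 52.3, 52.2 and 52.8. WT vehicle replicates 1 and 3 were thus the least even, and replicate 2 lay among the Pear1-/- vehicle libraries. The WT vehicle mean of 29.4 ± 14.4 (SD, n = 3) describes none of its libraries, and without replicate 2 it was 21.0.

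**Figure D1:**
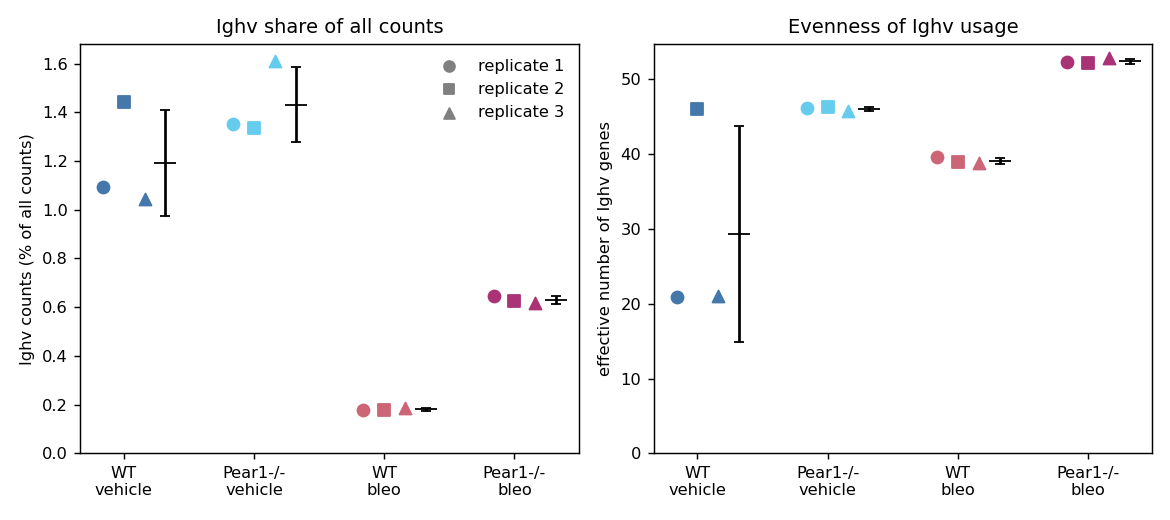
Ighv counts as a percent of all counts (left) and the effective number of Ighv genes at equal depth (right), by group. Points are libraries, with shapes for replicates 1 to 3, and the bars beside them are the mean ± SD of 3; WT vehicle replicate 2 scores 46.0 against 21.0 and 21.1 for the other WT vehicle libraries, and WT bleo has the lowest share of counts.

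The same order was seen in how many genes carried the counts. The most used genes that together made up 50% of the Ighv counts numbered 4 in WT vehicle replicates 1 and 3, 12 in replicate 2 and in every Pear1-/- vehicle library, 9 to 10 in WT bleo and 13 to 14 in Pear1-/- bleo. At the other end, 5 genes (Ighv16-1, Ighv8-13, Ighv8-9, Ighv8-4 and Ighv5-12-4) had 3 counts or fewer in each of the 12 libraries, and 71 genes were above 3 counts in all of them. Genes at 3 counts or fewer in all 3 libraries of a group numbered 24 for WT bleo, 13 for WT vehicle, 14 for Pear1-/- vehicle and 10 for Pear1-/- bleo. A count of 3 was 0.287 to 0.448 CPM, and WT bleo also had the fewest Ighv counts to spread over the genes.

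**Figure D2:**
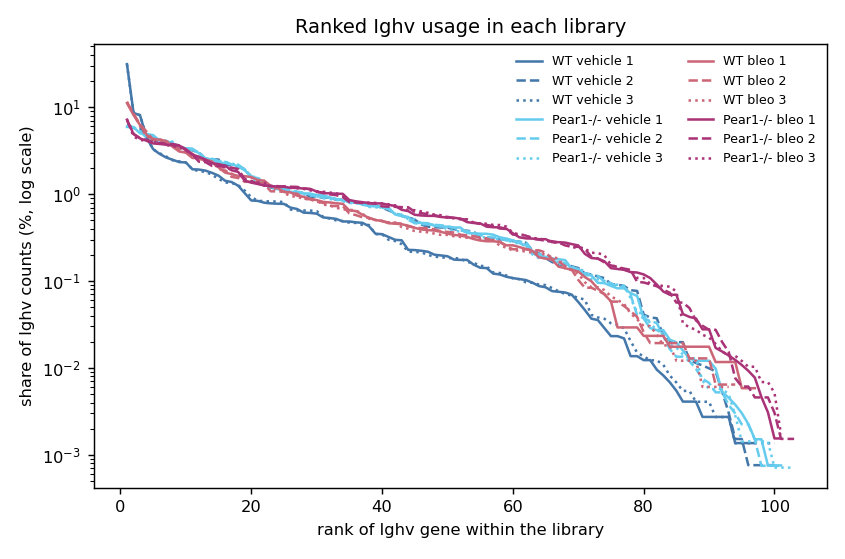
Share of Ighv counts (percent, log scale) against the rank of the gene within its library, with 1 line per library, coloured by group and dashed or dotted by replicate. The lines of WT vehicle replicates 1 and 3 start at 31.2% and 31.1% and fall below the others only at later ranks, while replicate 2 follows Pear1-/- vehicle.

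A single gene led WT vehicle replicates 1 and 3. Ighv1-18, a gene in the middle of the locus, had 22846 and 22838 counts there, 31.2 and 31.1% of Ighv counts, against 7441 counts (5.67%) in replicate 2. Its share was 4.44 to 4.92% in Pear1-/- vehicle, 1.29 to 1.61% after bleo in WT and 2.04 to 2.12% after bleo in Pear1-/-. Ighv1-18 therefore ranked first in a pair of libraries and was a minor gene of both bleo groups. With that gene taken out, the effective number in replicates 1 and 3 was 33.8 and 33.9, still below 46.4 in replicate 2 without its own top gene.

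Each of the other groups had its own leading gene. Ighv1-64 led Pear1-/- vehicle at 5.92, 6.03 and 5.97% of Ighv counts and WT vehicle replicate 2 at 6.33%. It was at 8.60 and 8.61% in WT vehicle replicates 1 and 3, second to Ighv1-18, at 4.21 to 4.29% in WT bleo and at 3.53 to 3.77% in Pear1-/- bleo. Per base of transcript, Ighv1-9 was ahead of Ighv1-64 in those 4 libraries, so their order depends on the scale; the leader was the same on both scales in the remaining 8 libraries.

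Ighv1-9 led WT bleo at 11.1, 11.4 and 11.5%, with 1775 to 1906 counts. Its share was 1.37, 5.75 and 1.36% in WT vehicle, 5.82 to 5.90% in Pear1-/- vehicle and 3.19 to 3.29% in Pear1-/- bleo. WT bleo thus had the highest share of Ighv1-9 although its counts there were below those of WT vehicle replicate 2 and Pear1-/- vehicle (7553 to 8161). Next in WT bleo came Ighv1-26 (8.12 to 8.48%), Ighv6-3 (6.06 to 6.33%) and Ighv1-80 (4.58 to 5.23%). Ighv6-3 was at 0.775 to 1.36% in each of the other 9 libraries.

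Ighv1-76 led Pear1-/- bleo at 7.17, 7.05 and 7.28%, with 4229 to 4643 counts. Its counts were 4448 to 4665 in Pear1-/- vehicle and 135 to 164 in WT bleo, and its share in those groups was 3.33 to 3.44% and 0.869 to 0.959%. Ighv1-81 (4.60 to 4.93%), Ighv1-26 (4.17 to 4.36%), Ighv1-72 (4.10 to 4.39%) and Ighv1-80 (3.83 to 3.98%) followed. No gene of Pear1-/- bleo reached the share that Ighv1-9 had in WT bleo.

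**Figure D3:**
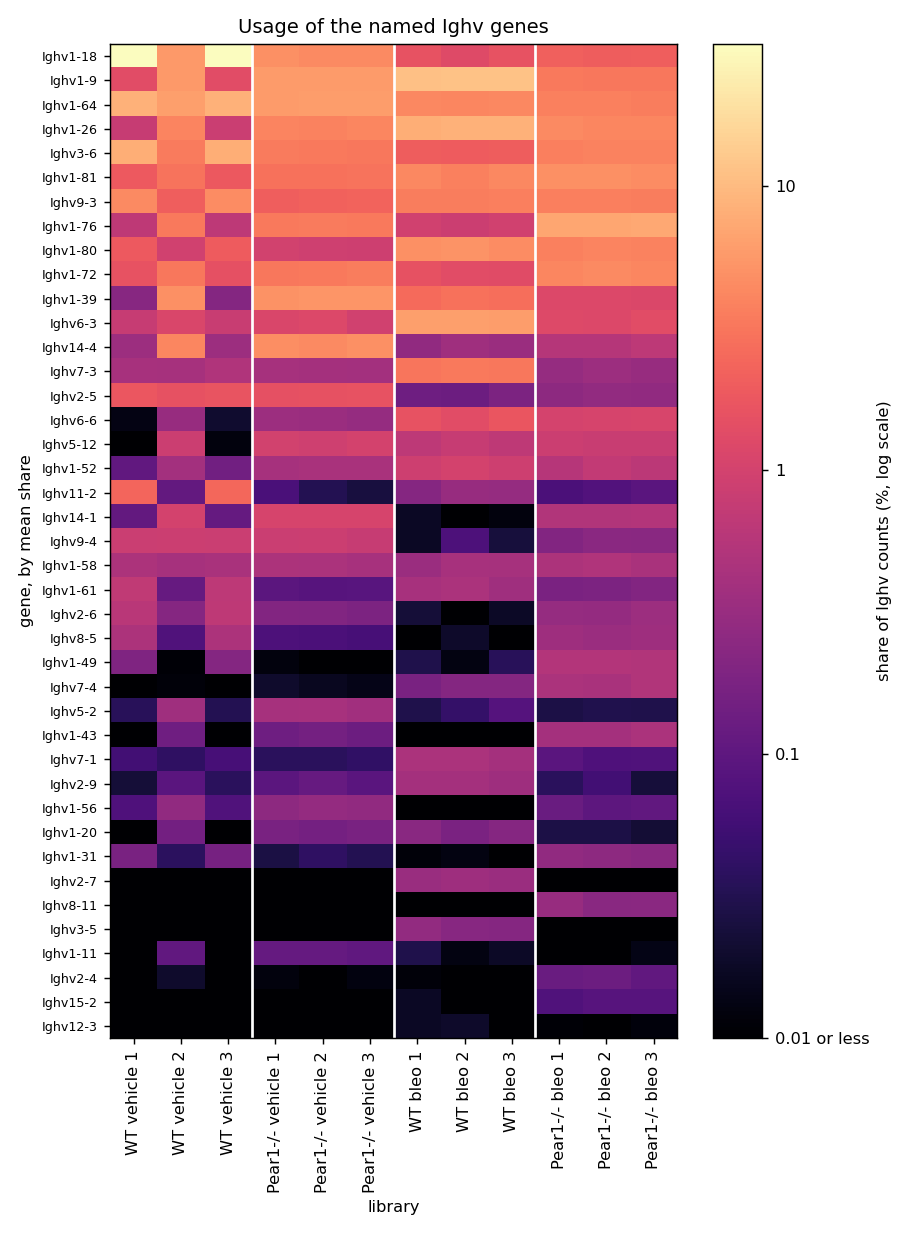
Share of Ighv counts (percent, log colour scale, 0.01% or less in black) of the Ighv genes named by a fixed rule, with libraries in columns and genes in rows ordered by mean share. White lines part the groups; the WT vehicle replicate 2 column resembles the Pear1-/- vehicle columns, and Ighv2-7 is black outside WT bleo.

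Overlap of usage, the sum over genes of the smaller of 2 libraries' shares, was 98.7% between WT vehicle replicates 1 and 3 and 51.0 and 51.2% between replicate 2 and these. Replicate 2 shared 96.6 to 97.6% of its usage with the 3 Pear1-/- vehicle libraries, which shared 97.5 to 98.2% among themselves. Within WT bleo the overlap was 96.3 to 96.8%, and within Pear1-/- bleo 97.6 to 97.8%. Replicate libraries of a group other than WT vehicle therefore used nearly the same V genes in nearly the same proportions. Over the Ighv genes, the chi-square per degree of freedom was 1.03 for WT vehicle replicates 1 and 3, 1.08 to 1.35 in WT bleo, 1.25 to 1.58 in Pear1-/- bleo and 2.01 to 3.57 in Pear1-/- vehicle. It was 3.28 to 6.96 between WT vehicle replicate 2 and Pear1-/- vehicle, and 653 and 656 between replicate 2 and its own group.

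Between groups the overlap was lower. WT bleo and Pear1-/- bleo shared 65.9 to 67.1%, Pear1-/- vehicle and Pear1-/- bleo 70.1 to 70.5%, and Pear1-/- vehicle and WT bleo 61.9 to 62.4%. WT vehicle replicates 1 and 3 shared 38.5 to 38.8% with WT bleo and 48.7 to 49.99% with Pear1-/- vehicle, whereas replicate 2 shared 61.9 to 62.1% with WT bleo. How libraries of a group came to share usage this closely was not tested.

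**Figure D4:**
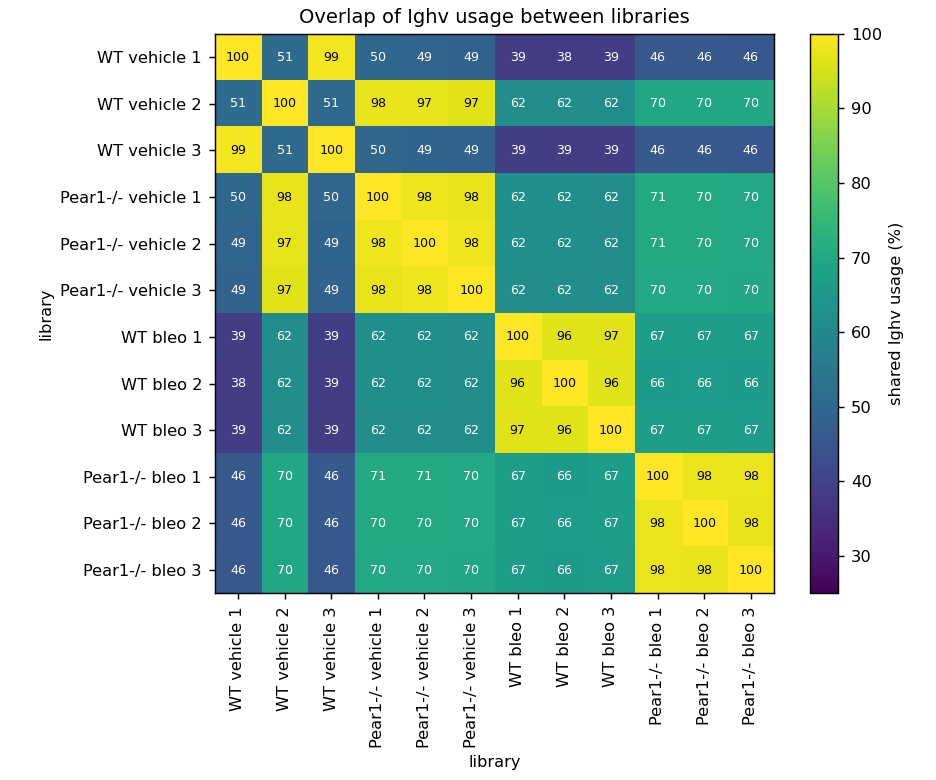
Overlap of Ighv usage (percent) for each pair of the 12 libraries, in rows and columns by group and replicate, with the value rounded in each cell. Bright blocks mark replicates of a group at 96.3% or more, and WT vehicle replicate 2 falls in the Pear1-/- vehicle block instead of its own, at 51.0 and 51.2% with replicates 1 and 3.

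**Figure D5:**
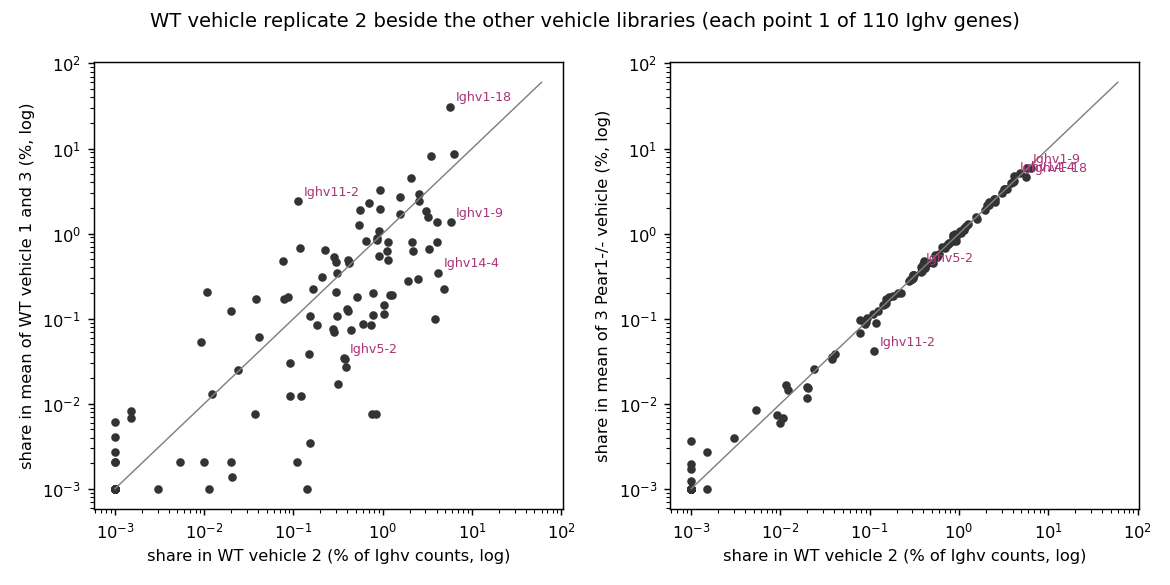
Share of each of the 110 Ighv genes in WT vehicle replicate 2 (x axis) against its mean share in WT vehicle replicates 1 and 3 (left) or in the 3 Pear1-/- vehicle libraries (right), as percent of Ighv counts on log axes, with values under 0.001% drawn at 0.001% and the line of equality in grey. Points scatter on both sides of the line at left and follow it at right, with Ighv11-2 furthest from it among the labelled genes.

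Of the segments with a known bias in use, Ighv11-2, the VH11 segment of B-1a cells, had 1706, 148 and 1795 counts in WT vehicle, or 2.33, 0.113 and 2.44% of Ighv counts. It had 35 to 89 counts in Pear1-/- vehicle, 38 to 51 after bleo in WT and 45 to 54 after bleo in Pear1-/-. Only WT vehicle replicates 1 and 3, of the 12 libraries, were above 1000 counts. As a share of Ighv counts, Ighv11-2 and Ighv11-1 together took 0.228 to 0.335% in WT bleo. They took 0.114% in WT vehicle replicate 2, 0.0264 to 0.0718% in Pear1-/- vehicle and 0.0695 to 0.0929% in Pear1-/- bleo. Ighv12-3, the VH12 segment that B-1a cells also use, was near the floor throughout, at 1 to 13 counts. Ighv5-2, known as VH81X and used early in B cell development, went the other way within WT vehicle, with 26, 487 and 24 counts. It had 526 to 568 counts in Pear1-/- vehicle, 5 to 14 after bleo in WT and 17 to 20 after bleo in Pear1-/-. Ighv1-72, the V186.2 segment of the response to nitrophenyl haptens, had 4.10 to 4.39% of Ighv counts in Pear1-/- bleo, 3.25 to 3.50% in Pear1-/- vehicle and 1.36 to 1.57% in WT bleo, with the uncertainty of its near copy Ighv1-62-3.

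Of the 110 genes, 95 passed the low-count filter. Between WT bleo and WT vehicle, 64 of these (3 higher, 61 lower) passed a fold change of 2 with a Benjamini-Hochberg adjusted p under 0.05 in edgeR's quasi-likelihood test, beside 33.8% of the 17418 genes tested (10.5% higher and 23.3% lower). Without WT vehicle replicate 2 the number was 67 of 97, with 17 higher and 50 lower, beside 45.0% of genes (11.3% higher and 33.7% lower). Between Pear1-/- bleo and Pear1-/- vehicle it was 46 (11 higher, 35 lower) beside 27.7% of genes (8.37% higher and 19.3% lower). Comparing the bleo groups, it was 60 (57 higher, 3 lower) beside 15.0% (6.22% higher and 8.80% lower). The rule used these contrasts, so the counts describe the members and support nothing. The median log2 fold change of the tested members was -2.59, -0.72 and 2.24 in these comparisons, against -0.07, -0.05 and -0.01 over all genes tested. Without WT vehicle replicate 2 the first was -1.37, against -0.21 over all genes.

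Between the vehicle groups 7 members passed (0 higher, 7 lower in Pear1-/-), beside 3.32% of genes (0.0689% higher and 3.25% lower), and the number turned on WT vehicle replicate 2. The median log2 fold change of the tested members was 0.79, opposite in sign to the 7 calls, against -0.0039 over all genes tested. Without replicate 2 it was 1.54, against -0.03. Without that library 64 of 97 passed (53 higher, 11 lower), beside 24.2% of genes (2.86% higher and 21.3% lower), and without any 1 of the other 5 vehicle libraries the edgeR count was 0, as it was over all genes tested, with 20 to 27 at an unadjusted p under 0.05. Ighv5-12 shows the pattern, with 2, 1116 and 9 counts in WT vehicle and 1237 to 1392 in Pear1-/- vehicle. So does Ighv14-4, with 253, 5475 and 254 counts in WT vehicle and 5960 to 6850 in Pear1-/- vehicle. In both genes replicate 2 was close to Pear1-/- vehicle. Ighv6-6 (10, 409 and 15 against 421 to 463) and Ighv1-39 (167, 6329 and 159 against 6615 to 7386) had the same arrangement. Ighv1-61 had it in the opposite direction, with 511, 156 and 476 counts in WT vehicle and 115 to 125 in Pear1-/- vehicle. The comparisons of Pear1-/- vehicle with WT vehicle and of WT bleo with WT vehicle share the WT vehicle libraries.

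Some genes were lost from view in WT bleo. Ighv1-56 had 0 counts in each WT bleo library, and 54, 362 and 56 in WT vehicle, 339 to 391 in Pear1-/- vehicle and 63 to 82 in Pear1-/- bleo. Against 3 counts in each WT bleo library, its CPM, pooled over the libraries of a group, was at least 119-fold higher in Pear1-/- vehicle and 21.1-fold higher in Pear1-/- bleo. In WT vehicle it was at least 24.2-fold higher without replicate 2, and 62.4-fold with it. Ighv14-1 had 1 to 3 counts in WT bleo, but 82, 1340 and 85 in WT vehicle, 1397 to 1482 in Pear1-/- vehicle and 307 to 339 in Pear1-/- bleo. Neither gene's WT bleo libraries overlapped any other library. Ighv8-5 (0 to 3 counts in WT bleo, 208 to 229 in Pear1-/- bleo), Ighv2-6 (1 to 4 against 196 to 200) and Ighv9-4 (3 to 11 against 133 to 162) were arranged alike. Ighv1-43 (0 to 1 against 259 to 266) was also at 0 in WT vehicle replicates 1 and 3, with 185 counts in replicate 2 and 184 to 209 in Pear1-/- vehicle.

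Other genes were seen mainly in 1 bleo group, or only had their highest share there. Ighv2-7 had 55, 56 and 56 counts in WT bleo, 0 in all 6 vehicle libraries and 1, 0 and 0 in Pear1-/- bleo. Its CPM in WT bleo was at least 15.6-fold higher than 3 counts in each WT vehicle library and 19.4-fold higher than 3 in each Pear1-/- vehicle library. Ighv3-5 had 49, 36 and 37 counts in WT bleo and 0 to 3 elsewhere. Both are low counts in a group with few Ighv counts. Ighv7-3 had 521 to 536 counts in WT bleo, a level near that of Pear1-/- vehicle (545 to 547), and its share was 3.09 to 3.36% in WT bleo against 0.303 to 0.498% in the other 9 libraries. Ighv7-1 (66 to 78 counts in WT bleo, 42 to 59 in the others) and Ighv2-9 (58 to 70 counts in WT bleo, 14 to 37 in Pear1-/- bleo) likewise had their highest shares in WT bleo.

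In Pear1-/- bleo, Ighv8-11 had 206, 154 and 143 counts, against 0 to 8 in the other 9 libraries. Ighv15-2 had 49 to 57 counts against 0 to 4, and Ighv2-4 63 to 88 against 0 to 26. Ighv7-4 had 289 to 298 counts, above 30 to 35 in WT bleo and 0 to 26 in the vehicle libraries. Ighv1-49 had 298 to 346 counts in Pear1-/- bleo and 4 to 16 in Pear1-/- vehicle, but 144, 14 and 160 in WT vehicle, again with replicate 2 at the Pear1-/- vehicle level. All 5 genes were higher in every Pear1-/- bleo library than in any other.

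The members that were lowest in Pear1-/- bleo relative to Pear1-/- vehicle included abundant ones. Ighv14-4 had 353 to 379 counts after bleo against 5960 to 6850 with vehicle, a log2 fold change of -4.27 ± 1.12 (SE). SE, here and below, is the absolute log2 fold change divided by the square root of the F statistic of the test. It rests on a spread estimated over all groups, WT vehicle included, and not on the libraries compared alone. Ighv2-5 had 163 to 190 counts against 2012 to 2247, or -3.75 ± 0.15, and it was at 21 to 30 counts in WT bleo against 1221 to 2024 in WT vehicle. Ighv2-5 stood within 1.52 to 1.75% of Ighv counts in all 6 vehicle libraries, replicate 2 included. Ighv1-11 (3 to 8 counts after bleo, 147 to 154 with vehicle) and Ighv1-20 (13 to 18 against 209 to 243) were low genes with the same direction.

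Families differ in size, from 51 Ighv1 genes to 1 gene each in families 4, 12, 13, 15 and 16. Ighv1 took 60.2 to 71.0% of Ighv counts in every library, above its 46.4% of the members. The sixth and seventh families were larger in WT bleo than elsewhere: Ighv6 took 7.77% ± 0.0521 there, 2.39% ± 0.0931 in Pear1-/- bleo, 1.43% ± 0.161 in Pear1-/- vehicle and 1.02% ± 0.368 in WT vehicle. Ighv7 took 3.87% ± 0.156 in WT bleo and 0.446 to 0.905% in the other 9 libraries. Ighv14 took 6.54% ± 0.215 in Pear1-/- vehicle, and 0.883, 5.94 and 0.878% in WT vehicle. After bleo it took 1.15% ± 0.062 in WT and 1.97% ± 0.0811 in Pear1-/- (SD, n = 3 throughout).

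Position in the locus was compared by splitting the genes into 37 nearest the D segments, 37 in the middle and 36 furthest away. The distal genes took 47.8% ± 0.558 of Ighv counts in Pear1-/- bleo, 39.9% ± 0.262 in Pear1-/- vehicle and 34.7% ± 0.345 in WT bleo. In WT vehicle they took 32.3, 40.1 and 31.9%. The middle genes, which include Ighv1-18 and Ighv1-9, took 52.7, 37.7 and 52.7% in WT vehicle, 36.8% ± 0.478 in Pear1-/- vehicle, 40.3% ± 0.0943 after bleo in WT and 28.9% ± 0.294 after bleo in Pear1-/-. Proximal genes ranged from 15.0 to 25.4% over the 12 libraries, lowest in WT vehicle replicates 1 and 3. Distal genes thus had their highest share in Pear1-/- bleo, above every other library.

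Genes of B-lineage cells outside the immunoglobulin loci were tested with the same model, as 17 B cell and 13 plasma cell genes. Between WT bleo and WT vehicle, 8 of 13 plasma cell genes fell and 1 rose, and 2 of 17 B cell genes rose and 1 fell. Together 12 of the 30 passed, beside 33.8% of all genes tested (10.5% higher and 23.3% lower). Jchain, which joins IgA and IgM multimers, had 9735, 15642 and 10850 CPM in WT vehicle and 977 to 1049 in WT bleo, a log2 fold change of -3.50 ± 0.22 (edgeR adjusted p = 8.97e-07). Tnfrsf17, the plasma cell survival receptor BCMA, changed by -2.62 ± 0.28 (edgeR adjusted p = 4.42e-07), and Mzb1, a chaperone of antibody assembly, by -1.53 ± 0.23 (edgeR adjusted p = 0.000227). Fcer2a, the IgE receptor of mature B cells, rose by 1.18 ± 0.08 (edgeR adjusted p = 9.32e-11), and Cr2, a complement receptor, by 1.08 ± 0.18 (edgeR adjusted p = 6.44e-05). Slamf7, the plasma cell gene that rose, is also made by macrophages and other leukocytes. Without WT vehicle replicate 2, 13 of the 30 genes passed, with 7 higher and 6 lower in place of 3 and 9. Over all genes tested 45.0% passed in that setting (11.3% higher and 33.7% lower).

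Between Pear1-/- bleo and WT bleo, 8 of 13 plasma cell genes were higher in Pear1-/- and 1 was lower, while 4 of 17 B cell genes were lower, beside 6.22% of all genes higher and 8.80% lower. No WT vehicle library is compared here, but these libraries entered the shared estimate of the spread. The comparison was not repeated without them. Jchain differed by 2.96 ± 0.21 (edgeR adjusted p = 5.18e-06), at 7794 to 8101 CPM in Pear1-/- bleo. Sdc1, a plasma cell surface proteoglycan that epithelial cells also carry, differed by 1.32 ± 0.11 (edgeR adjusted p = 3.21e-08). Fcer2a was lower by 1.77 log2 units. Between Pear1-/- bleo and Pear1-/- vehicle, 4 of 13 plasma cell and 2 of 17 B cell genes fell, beside 19.3% of all genes lower, among them Jchain (-1.12 ± 0.20, edgeR adjusted p = 0.00119) and Ebf1, a B cell transcription factor that fibroblasts also express (-1.54 ± 0.10, edgeR adjusted p = 1.17e-10). Between the vehicle groups 0 of 30 passed in edgeR, beside 3.32% of all genes (0.0689% higher and 3.25% lower), and 0 in DESeq2. At an unadjusted edgeR p under 0.05 there were 21, all higher in Pear1-/-. Without WT vehicle replicate 2, 5 passed, all higher, beside 24.2% of all genes (2.86% higher and 21.3% lower).

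Of 8 genes of V(D)J joining and diversification, 3 were tested. Rag1, which encodes a subunit of the recombinase that joins V, D and J segments, had 0 to 1 counts in the 6 bleo libraries, and 11, 14 and 21 in WT vehicle. Among 5 factors of V promoters and B cell enhancers, 2 passed the test between WT bleo and WT vehicle, beside 33.8% of all genes. Pou2f2, which encodes Oct-2, rose with bleo in WT by 2.10 ± 0.12 (edgeR adjusted p = 1.44e-11), and Spi1 by 2.10 ± 0.08 (edgeR adjusted p = 1.27e-14). Both are also expressed by macrophages, and both were lower in Pear1-/- bleo than in WT bleo, with a log2 difference of -1.40 ± 0.11 for Pou2f2 (edgeR adjusted p = 5.27e-09) and -1.11 ± 0.07 for Spi1 (edgeR adjusted p = 4.08e-10). The other 3 were within 2-fold between WT bleo and WT vehicle, at -0.90 ± 0.10 for Ebf1 (edgeR adjusted p = 1.70e-07), -0.58 ± 0.13 for Pou2af1 (edgeR adjusted p = 0.00122) and 0.36 ± 0.12 for Pou2f1 (edgeR adjusted p = 0.0109).

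Markers of other cells moved with the groups as well. The 8 macrophage genes summed to 1759 to 1870 CPM in the vehicle libraries, 12803 to 12902 in WT bleo and 5290 to 5457 in Pear1-/- bleo, with 7 of 8 passing the test as higher after bleo in each genotype. Of all genes tested, 10.5% were higher and 23.3% lower after bleo in WT, and 8.37% and 19.3% in Pear1-/-. The 8 fibroblast genes summed to 17819 to 18958 CPM with vehicle, 12402 to 12524 in WT bleo and 32380 to 33149 in Pear1-/- bleo. In WT 5 of the 8 passed as lower with bleo, and in Pear1-/- 2 as higher and 4 as lower, while 3 were higher in Pear1-/- bleo than in WT bleo, beside 6.22% of all genes. The 5 epithelial genes summed to 2118 to 2575 CPM with vehicle, 987 to 1012 in WT bleo and 329 to 345 in Pear1-/- bleo, with mixed members: 1 passed as lower with bleo in WT, and 1 as higher and 3 as lower in Pear1-/-. The surfactant gene Sftpc fell by 3.45 log2 units there and the adhesion gene Cdh1 rose by 1.26. The 5 endothelial genes summed to 330 to 366 with vehicle and 164 to 190 after bleo. The 9 T cell genes summed to 184 to 283 CPM with vehicle and 94.0 to 137 after bleo. Pdgfra, the gene of the sorted marker, was at 434 to 591 CPM with vehicle, 150 to 157 in WT bleo and 264 to 270 in Pear1-/- bleo. The 17 B cell genes summed to 811 to 1168 CPM with vehicle, 1172 to 1188 in WT bleo and 836 to 855 in Pear1-/- bleo, and the 13 plasma cell genes to 11313 to 20233, 1919 to 1992 and 9493 to 9751. The plasma cell sum mostly follows a single gene, Jchain, at 9735 to 18162 CPM with vehicle, 977 to 1049 in WT bleo and 7794 to 8101 in Pear1-/- bleo. No listed marker gene of macrophages, T cells, B cells or plasma cells was at 3 counts or fewer in all libraries. Whether those cells were in the sorted material, and their part in the Ighv values, was not tested.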

How the data were processed

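Bulk RNA-seq of 12 libraries was analysed from the table of raw counts per gene that the authors deposited (HISAT2 alignment to GRCm38, per the methods). The counter and its treatment of reads with several matches are not given in the sources used here. Reads over a V(D)J junction or with somatic mutations match germline V genes only in part, which can lower counts or move them to a near copy. The authors also deposited signal values, which are the same counts divided by 1 factor per library: 100% of them returned the whole deposited counts within 0.01, so a count test on them is the main test. They entered 1 alternative (limma on log2 of value plus 1). Members and gene lists were chosen with earlier results of these data known.

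Shares are percent of Ighv counts, CPM uses the total over all genes, and thinning drew 15529 counts 20 times. Comparisons used edgeR 4.0.16 (TMM, filterByExpr, robust quasi-likelihood, all 12 libraries in 1 model of 4 groups, R 4.3.3) with a fold change above 2 and a Benjamini-Hochberg adjusted p under 0.05. The test was tried on simulated data first. DESeq2 1.42.0 and limma 3.58.1 served as alternatives. Overlap and entropy were computed with numpy 2.4.6, and identities with Biopython 1.88. Named Ighv genes were the 5 of largest mean share per group, up to 5 higher and 5 lower per comparison (largest log2 change, groups not overlapping, mean of 20 counts or more), and Ighv11-2, Ighv12-3, Ighv5-2 and Ighv1-72. The 5 members at the floor and the near copies were named after their values were seen. Alternatives covered size factors, the filter, the tool, the replicate number as a block, other evenness indices and each library left out. A floor of 3 counts covers counting error only. Not every gene of the lists is reported here.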

Additional observations from a re-analysis of the deposited data

Results flagged for a closer look

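The share of 9 of the 41 named Ighv genes moved with bleo in opposite directions in the 2 genotypes, with every library of one group on one side and every library of the other on the opposite side. This difference was not tested. Of the 41, 29 had been picked for groups that do not overlap in a comparison. Over all 110 members 21 (19.1%) were so arranged. Every WT bleo library had a higher share of Ighv counts than every WT vehicle library, and every Pear1-/- bleo library a lower share than every Pear1-/- vehicle library, for Ighv1-9 (11.4% in WT bleo), Ighv7-3 (3.23%), Ighv2-9 (0.389%), Ighv3-5 (0.247%) and Ighv1-20 (0.213%). The opposite arrangement was seen for Ighv3-6 (1.99% in WT bleo), Ighv2-6 (0.016%), Ighv1-31 (0.00819%) and Ighv8-5 (0.00644%). The 3 lowest of these shares rest on 0 to 4 counts per WT bleo library, and Ighv3-5 on 1 to 3 counts per Pear1-/- vehicle library.

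The 57 annotated Ighv pseudogenes entered no comparison. In Pear1-/- bleo they had 971, 1017 and 852 counts, 1.48% ± 0.0426 (SD, n = 3) of the counts on Ighv genes and pseudogenes, above 0.160 to 0.217% in the 6 vehicle libraries. WT bleo had 8 to 21 counts. Ighv3-2 alone had 333 to 371 counts in Pear1-/- bleo, 78 to 91 in Pear1-/- vehicle and 0, 91 and 2 in WT vehicle. Ighv1-86 had 90 to 119 counts in Pear1-/- bleo and 0 in the other 9 libraries. Ighv3-2 and Ighv1-86 were named after their values were seen.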

How the results depend on the processing

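The numbers of Ighv and B-lineage genes called stayed within 1.5 times under DESeq2, other size factors, no filter, limma and the block in the 3 comparisons with bleo libraries. Between the vehicle groups, Ighv calls went from 7 to 2 with limma on the deposited values and to 3 with the replicate number as a block, where DESeq2 called 10; the cause was not tested. Leaving out 1 library gave 0 to 64 Ighv calls and 0 to 5 B-lineage calls there. In the other comparisons it gave 53 to 72 Ighv calls for WT bleo against WT vehicle, 36 to 41 for Pear1-/- bleo against Pear1-/- vehicle and 54 to 57 for the bleo groups. The B-lineage calls were then 10 to 13, 4 and 13. In each comparison only libraries of the groups compared were left out. WT vehicle replicate 2 thus stayed in the fits of Pear1-/- bleo against Pear1-/- vehicle and of the bleo groups. Same-numbered libraries did not deviate together (18 pairs, correlations of -0.156 to 0.096), so the numbers were not taken as pairs.

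As percent of counts outside immunoglobulin rows, the Ighv share was 1.65 for Pear1-/- vehicle and 0.678 for Pear1-/- bleo. The inverse Simpson index was 33.8 for Pear1-/- vehicle, 24.6 for WT bleo and 37.6 for Pear1-/- bleo. Without the most used gene, the effective number was 42.0 in WT bleo and 54.0 in Pear1-/- bleo. Overlap between replicates without the 5 most used genes was 95.7% in WT bleo and 97.5% in Pear1-/- bleo, and after thinning 96.3% in Pear1-/- vehicle and 96.1% in Pear1-/- bleo. With 1 library left out, overlap was 51.0 to 98.7% in WT vehicle, 97.5 to 98.2% in Pear1-/- vehicle, 96.3 to 96.8% after bleo in WT and 97.6 to 97.8% after bleo in Pear1-/-. The lower WT vehicle value is the overlap of replicate 2 with 1 other library. The cause of these shifts was not tested. Fcrla changed by -0.02 between WT bleo and WT vehicle, and by 0.44 without WT vehicle replicate 2 and -0.22 without replicate 1 (log2). Over the single genes, judged by an adjusted p under 0.05 with no limit on the fold, 1519 values under an alternative stayed on their side of the threshold, 150 no longer passed, 68 newly passed and 1, Fcrla, turned direction. Another 9 changed sign with an adjusted p above 0.05 under both settings. Genes with few counts in WT bleo limit what can be seen there.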
